A study of Mus musculus with 6 samples.

Results

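The Hoxa and Hoxb genes described here are 10 members of the mouse Hox clusters with known uses in blood stem cells: Hoxa5, Hoxa7, Hoxa9, Hoxa10, Hoxb2, Hoxb3, Hoxb4, Hoxb5, Hoxb6 and Hoxb8. They were chosen by name, with earlier results of these data known, from 23574 genes that remained after the deposited transcript counts had been summed by gene symbol. The RNA came from C57BL/6 haematopoietic stem cells, with 3 libraries labelled HLF KO, in which the transcription factor gene Hlf (hepatic leukaemia factor) is disrupted, and 3 labelled wild type. Each library held total RNA of 3000 freshly isolated cells that were negative for lineage markers, CD34 and Flt3 and positive for Sca-1 and c-Kit. The sources used here do not give the age of the mice, the part of Hlf that was removed or the number of animals behind a library. The p-values therefore measure only how these libraries spread, part of which may be technical. In bulk RNA fewer cells that express a gene and less RNA per cell cannot be told apart.

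Hox genes encode transcription factors with a homeodomain, a DNA-binding fold, and lie side by side in clusters in which gene order follows the order of their use along the body axis. Their proteins gain DNA specificity by binding with TALE homeodomain partners of the Pbx and Meis families. Chromatin regulators of the MLL (Kmt2a) complex keep the clusters active and Polycomb complexes silence them. In blood, many Hoxa and Hoxb genes are used in stem cells and early progenitors and are shut off as cells mature. Hoxa9 with its partner Meis1 is a known driver of leukaemia.

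The libraries held between 8346335 and 11998296 counts, with the 3 knockout libraries the deepest. Hlf checked the labels, with 10768, 15982 and 10055 counts in the wild-type libraries and 309, 399 and 431 in the knockout libraries. On the log2 scale knockout over wild type was -5.33 (SE 0.26), with an edgeR adjusted p of 1.91e-06. Wild-type libraries resembled each other less (Pearson's r across genes on the log2 CPM scale, 0.749 to 0.805) than knockout libraries did (0.869 to 0.883). Wild-type library 1 was the most distant from the rest. Between genotypes r was 0.776 to 0.848. Wild-type library 3 was nearer to the knockout libraries (0.843 to 0.848) than to wild-type libraries 1 and 2 (0.776 and 0.805). The other wild-type libraries were also not clearly nearer to their own genotype. For wild-type library 1, r was 0.776 to 0.784 with knockout and 0.749 and 0.776 with wild type. For wild-type library 2, it was 0.804 to 0.822 with knockout and 0.749 and 0.805 with wild type. Levels are given as CPM, which are read counts relative to library size after TMM scaling. Wild-type library 3 stood apart in its granulocyte and monocyte genes. The 12 markers of that list summed to 3401 CPM there and to 633.6 and 638.2 CPM in wild-type libraries 1 and 2. In the knockout libraries they summed to 328.3 to 490.1 CPM, and S100a9 was at 0 throughout. Of the 16 stem cell markers, 12 could be tested. Among these, Hlf passed the test, and Mecom, Procr, Fgd5 and Robo4 were also lower at an unadjusted p under 0.05, as were 4.65% of all tested genes. In all 7 of the 12 were negative and 5 positive (Slamf1, Ctnnal1, Gata2, Tal1 and Vwf). In every knockout library 5 of the 12 were lower and 1, Ctnnal1, was higher, against 6.85% and 7.52% of all tested genes. The 5 were Hlf, Mecom, Procr, Tek and Robo4. Hlf is the disrupted gene, so its place among the 5 and among the 7 negative genes was fixed by the design. Ly6a (Sca-1) was at 0 in every library and Kit had 1 count. Both have several listed transcripts. Such genes had a median total of 3 counts, and genes with 1 transcript had 79. Of the genes that the sort excludes, Cd34 (2 listed transcripts) had 24 counts in all, and Flt3 had between 88 and 318 counts in each library.

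The sequence before the start of a Hox gene is shown for 3 members that span the range found here: Hoxa5 and Hoxb4, which had counts in all 6 libraries, and Hoxb8, which had 1 count in total. Each run is the 250 bases before the annotated start, 5′ to 3′ along the gene, from RefSeq on GRCm38.p6. Capitals mark matches, on either strand, to CCAAT, to TATAAA or to TGATNNAT, the Pbx-Hox consensus. These places are chr6:52204588-52204837 (minus strand) for Hoxa5, chr11:96318017-96318266 (plus strand) for Hoxb4 and chr11:96281655-96281904 (plus strand) for Hoxb8.
Hoxa5: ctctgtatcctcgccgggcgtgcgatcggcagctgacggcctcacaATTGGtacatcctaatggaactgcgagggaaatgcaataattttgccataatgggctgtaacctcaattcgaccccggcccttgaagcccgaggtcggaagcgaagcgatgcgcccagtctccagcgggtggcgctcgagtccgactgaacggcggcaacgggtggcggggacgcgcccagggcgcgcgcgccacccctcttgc
Hoxb4: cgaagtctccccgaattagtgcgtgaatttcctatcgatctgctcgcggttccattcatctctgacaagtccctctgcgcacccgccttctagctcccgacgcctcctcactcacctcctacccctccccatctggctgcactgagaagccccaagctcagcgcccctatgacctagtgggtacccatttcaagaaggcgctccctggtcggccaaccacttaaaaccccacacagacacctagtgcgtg
Hoxb8: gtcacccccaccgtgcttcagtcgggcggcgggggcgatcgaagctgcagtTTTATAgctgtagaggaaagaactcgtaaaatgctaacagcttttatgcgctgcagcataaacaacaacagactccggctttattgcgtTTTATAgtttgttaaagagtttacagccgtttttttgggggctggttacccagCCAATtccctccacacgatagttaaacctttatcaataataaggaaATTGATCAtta

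The RefSeq table held 7 such windows for 6 of the 10 members, and none for Hoxb2, Hoxb3, Hoxb5 and Hoxb6. The windows of Hoxa5 and Hoxb4 were rich in CpG, with 28 and 14, against a median of 6 over all 32851 windows. The inner Hoxa10 window had 20 CpG and the outer one 7, Hoxb8 had 12, Hoxa7 7 and Hoxa9 3. The motif of the PAR bZIP family to which Hlf belongs, searched as TTACNTAA on both strands, was in none of the 7 windows (0 of 7), and 2.06% of all windows held it. TGATNNAT was in 1 of the 7, that of Hoxb8, and in 7.68% of all windows. CCAAT was in 3 (Hoxa5, Hoxb8 and the inner start of Hoxa10) and in 33.8% of all, and TATAAA was in 2 (Hoxb8 and the same start of Hoxa10) and in 12.4% of all. CACGTG, the E-box, was in 0 of the 7 and in 6.02% of all. The matches do not overlap each other in the runs shown. They describe these letters in these windows and not binding.

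Counts were found along both clusters, but unevenly. Of the 21 genes of the Hoxa and Hoxb clusters, 3 (Hoxa13, Hoxb1 and Hoxb13) had no count in any library, 10 passed the filter on low counts and could be tested, and 6 of those 10 are members. The tested members are Hoxa5, Hoxa7, Hoxa9, Hoxb2, Hoxb4 and Hoxb5. Hoxa10, Hoxb3, Hoxb6 and Hoxb8 did not pass. Of the 18 genes of the Hoxc and Hoxd clusters, 13 had no count and none passed the filter (0 tested). The 10 members summed to 124.2, 107.6 and 132.5 CPM in wild-type libraries 1, 2 and 3 and to 108.8, 49.7 and 60.9 CPM in knockout libraries 1, 2 and 3. Knockout library 1 thus lay within the wild-type range, and the other two knockout libraries lay below it.

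**Figure D1:**
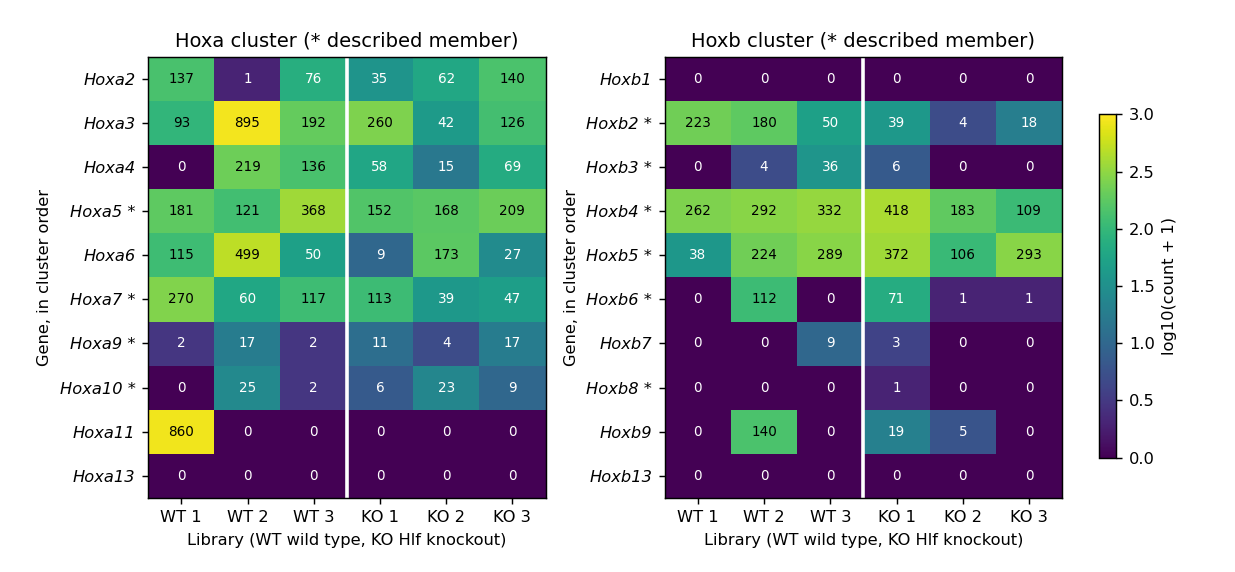
Read counts of Hoxa and Hoxb genes in cluster order (rows) in each of the 6 libraries (columns), with colour giving log10(count + 1) and the number the count; asterisks mark the 10 members. Hoxa5, Hoxb4 and Hoxb5 had counts in all 6 libraries, whereas Hoxa11 had 860 counts in wild-type library 1 and 0 elsewhere.

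Of the 6 tested members, 0 passed edgeR's quasi-likelihood test at an adjusted p under 0.05, and over all 10204 tested genes 0.0098% passed, which is Hlf alone. DESeq2, which gave Hoxa9 no adjusted p, called 0 of the other 5 members and 1.26% of all genes with an adjusted p. limma-voom called 0 members. At an unadjusted p under 0.05 there was 1 member, Hoxb2, lower in knockout, against 4.65% of all tested genes in that direction. No member was higher (0 of 6), against 2.63%. Hoxb2 was also the 1 member with no overlap between the genotypes, where 6.85% of all tested genes were lower in every knockout library. For higher in every knockout library the numbers were 0 of 6 members and 7.52% of all. Of the 6, 4 had negative and 2 positive log2 fold changes, and 52.8% of all tested genes were negative. Their median was -0.65, against -0.05 over all tested genes. The median standard error was 0.88 for the members and 0.59 for all tested genes.

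Hoxb2, best known for patterning the hindbrain, had 223, 180 and 50 counts in wild-type libraries 1, 2 and 3 and 39, 4 and 18 in knockout libraries 1, 2 and 3. Scaled to depth these were 28.4, 18.7 and 5.54 CPM against 3.57, 0.377 and 1.56 CPM. The lowest wild-type library lay above the highest knockout library. The means were 17.5 ± 11.5 CPM in the wild-type group and 1.83 ± 1.61 CPM in knockout (SD, n = 3). The log2 fold change was -3.25 (SE 1.19, 95% interval -5.86 to -0.64, unadjusted p = 0.0191), which did not pass when adjusted (edgeR adjusted p = 0.60). DESeq2 gave an adjusted p of 0.0991. An exact permutation test of log2 CPM (two-sided) gave p = 0.1, and 3 libraries against 3 cannot give a smaller one. The fold change lay between -4.15 and -2.70 when any 1 library was left out, and its adjusted p between 0.33 and 0.999. In GENCODE vM21, 58.5% of the Hoxb2 transcript is covered by exons of the antisense RNA gene Hoxb3os on the other strand. The sources used here do not say whether counting used strand, so reads of Hoxb2 and of Hoxb3os cannot be told apart.

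Hoxb4, which expands stem cells when overproduced, was the member with the most counts, 1596 over the 6 libraries. Wild-type libraries 1, 2 and 3 had 262, 292 and 332 counts, or 33.3, 30.4 and 36.8 CPM. Knockout libraries 1, 2 and 3 had 418, 183 and 109 counts, or 38.2, 17.2 and 9.44 CPM. The wild-type libraries lay close together, and the knockout libraries spread from above the highest of them to below the lowest. The means were 33.5 ± 3.21 CPM in the wild-type group and 21.6 ± 14.9 CPM in knockout (SD, n = 3), with a log2 fold change of -0.63 (SE 0.63, 95% interval -2.02 to 0.75, edgeR adjusted p = 0.85). It was -1.32 without knockout library 1 and -0.26 without knockout library 3. Its exons overlap no exon of another gene in GENCODE vM21.

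Hoxb5 marks long-term stem cells within the stem cell gate. It had 38, 224 and 289 counts in the wild-type libraries (4.83, 23.3 and 32.0 CPM) and 372, 106 and 293 counts in knockout (34.0, 9.98 and 25.4 CPM), each in the order of libraries 1 to 3. The genotypes overlapped over almost their whole range, and wild-type library 1 was the lowest. The means were 20.1 ± 13.9 CPM in the wild-type group and 23.1 ± 12.2 CPM in knockout (SD, n = 3). The log2 fold change was 0.21 (SE 0.80, 95% interval -1.54 to 1.95, edgeR adjusted p = 0.98). Its sign turned without wild-type library 1 (-0.24) and without knockout library 1 (-0.17).

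The other Hoxb members did not pass the filter on low counts and were not tested. Hoxb6, which expands stem cells and immature myeloid cells when overproduced, had 0, 112 and 0 counts in the wild-type libraries and 71, 1 and 1 in knockout. Wild-type library 2 and knockout library 1 thus held nearly all of its 185 counts. Hoxb9 of the same cluster, no member, had 140 counts in the same wild-type library, 19 in knockout library 1 and 5 in knockout library 2, and 0 in the other 3. Hoxb3, which shares functions with Hoxb4 in stem cells, had 0, 4 and 36 counts in the wild-type libraries and 6, 0 and 0 in knockout. It has 2 listed transcripts, and GENCODE exons of Hoxb3os cover 70.5% of the longer and 50.9% of the shorter. Hoxb8, which holds myeloid progenitors in an immature state when overproduced, had 0 counts in the wild-type libraries and 1 in knockout. A count of 0 in the wild type allows a level of up to 0.111 CPM (3 counts of the group's total, counting error only), and no fold change is given. Together the 6 Hoxb members summed to 76.4 ± 9.11 CPM in the wild-type group and 49.0 ± 29.7 CPM in knockout (SD, n = 3), and knockout library 1, at 83.0 CPM, lay within the wild-type range of 66.5 to 84.5 CPM.

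**Figure D2:**
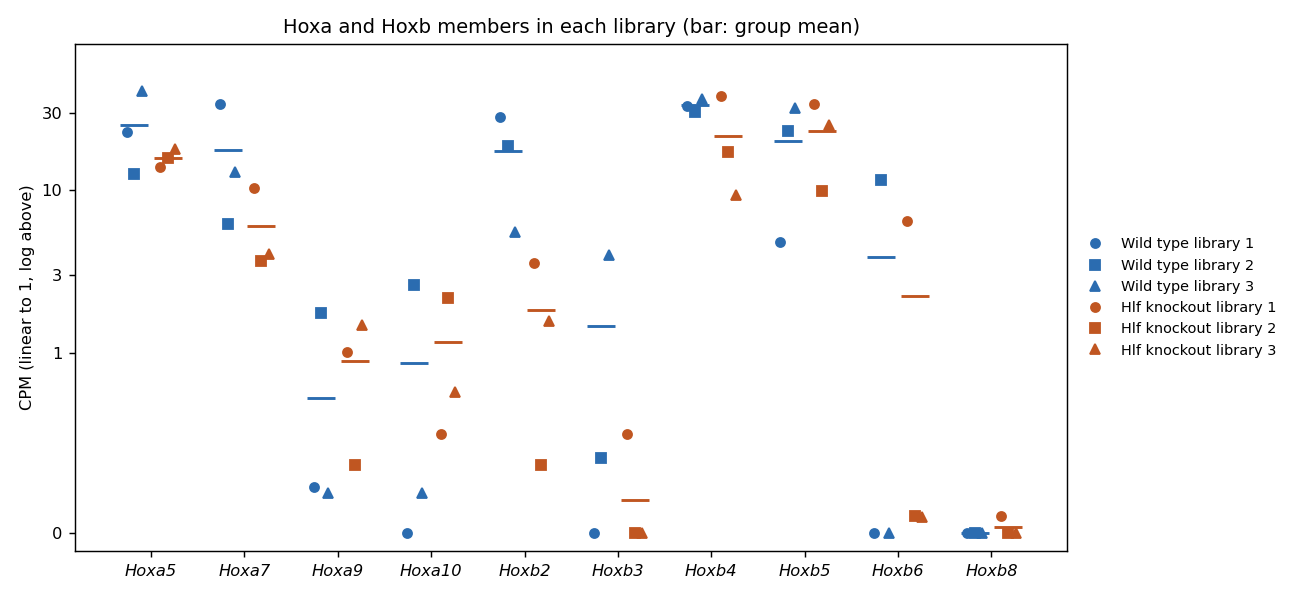
CPM (read counts after TMM scaling to library size) of each of the 10 members in the 3 wild-type (blue) and 3 knockout (orange) libraries, with a bar at each group mean; the axis is linear up to 1 and logarithmic above. The genotypes separate for Hoxb2 and overlap for the other 9 members.

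Among the Hoxa members, Hoxa5, which acts in myeloid and erythroid fate, had counts in every library. It had 181, 121 and 368 counts in the wild-type libraries (23.0, 12.6 and 40.8 CPM) and 152, 168 and 209 in knockout (13.9, 15.8 and 18.1 CPM). The knockout libraries lay close together and inside the wild-type range. The means were 25.5 ± 14.3 CPM in the wild-type group and 15.9 ± 2.10 CPM in knockout (SD, n = 3), with a log2 fold change of -0.68 (SE 0.68, 95% interval -2.16 to 0.81, edgeR adjusted p = 0.85). It was -0.16 without wild-type library 3, the library with the high granulocyte and monocyte genes.

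Hoxa7, which is active with Hoxa9 in leukaemias with MLL fusions, had 270, 60 and 117 counts in the wild-type libraries (34.4, 6.24 and 12.96 CPM) and 113, 39 and 47 in knockout (10.3, 3.67 and 4.07 CPM). Knockout library 1 lay above wild-type library 2, so the genotypes overlapped. The means were 17.9 ± 14.7 CPM in the wild-type group and 6.03 ± 3.74 CPM in knockout (SD, n = 3), with a log2 fold change of -1.56 (SE 0.97, 95% interval -3.69 to 0.56, edgeR adjusted p = 0.74). It was -0.66 without wild-type library 1. In GENCODE vM21, exons of the antisense RNA gene Hoxaas3 cover 28.8% of the linked Hoxa7 transcript on the other strand, and that transcript differs in span from RefSeq's. Hoxaas3 had 14 counts in the wild-type libraries and 38 in knockout.

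Hoxa9, whose loss impairs stem cell repopulation, had 2, 17 and 2 counts in the wild-type libraries and 11, 4 and 17 in knockout. Hoxa10, a regulator of progenitor proliferation, had 0, 25 and 2 counts in the wild-type libraries and 6, 23 and 9 in knockout. Both genes have 2 listed transcripts, and in each gene 1 of them had 0 counts in all 6 libraries. Their low counts are therefore not read as low expression, since genes with several listed transcripts had few counts as a class. Hoxa9 passed the filter, with a log2 fold change of 0.34 (SE 1.54, 95% interval -3.03 to 3.70, edgeR adjusted p = 0.98), an interval wider than that of any other tested member. Its sign turned without wild-type library 1, without wild-type library 3 and without knockout library 3 (-0.05, -0.09 and -0.11). The 4 Hoxa members together stood at 57.6, 23.2 and 54.2 CPM in the wild-type group and at 25.8, 22.0 and 24.4 CPM in knockout, so that wild-type library 2 lay among the knockout libraries.

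**Figure D3:**
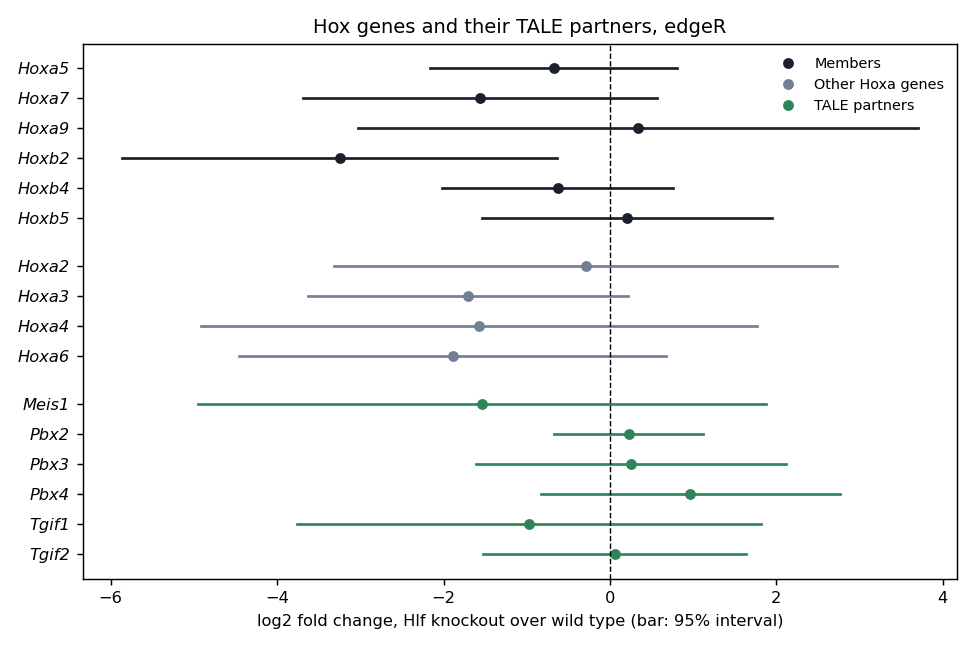
Log2 fold change of knockout over wild type (point) with its 95% interval (bar) from edgeR for the 6 tested members, 4 other tested Hoxa genes and tested TALE partners; the dashed line marks no change. The interval of Hoxb2, from -5.86 to -0.64, is the one that does not reach 0 before adjustment.

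Levels of different genes were compared per length of transcript, as CPM per kb with lengths from GENCODE vM21. In wild type Hoxa5 stood at 13.6 ± 7.59, Hoxb4 at 13.1 ± 1.25, Hoxb2 at 10.8 ± 7.04, Hoxb5 at 10.6 ± 7.33 and Hoxa7 at 8.89 ± 7.31 CPM per kb (SD, n = 3). The Hoxa7 value is approximate, since the GENCODE transcript linked to it differs in span from RefSeq's. Neighbours among these 5 differed by less than the larger of their SDs, so their order is not resolved. Hoxb6 followed at 2.94 ± 5.09 CPM per kb, from 1 library. In knockout Hoxb5 stood at 12.2 ± 6.43, Hoxa5 at 8.49 ± 1.12, Hoxb4 at 8.43 ± 5.81, Hoxa7 at 3.00 ± 1.86, Hoxb6 at 1.68 ± 2.80 and Hoxb2 at 1.13 ± 0.99 CPM per kb (SD, n = 3). Neighbours again differed by less than the larger of their SDs, and Hoxb6 rests on knockout library 1, with Hoxb2 above it in the other two.

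The spread between libraries was computed for the 6 tested members. The measure was the SD of log2 CPM within genotype, pooled over both, set beside the median of all tested genes within 0.5 log2 CPM of the member's mean level. It was 0.61 for Hoxa5 (median 0.84), 0.71 for Hoxb4 (0.75) and 1.03 for Hoxa7 (1.18). It was 1.28 for Hoxb2 (1.49) and 1.04 for Hoxa9 (1.85), where 12.3% of the genes of its level had a smaller SD. Hoxb5 was the 1 member above the median, at 1.20 against 0.86, and 76.0% of the 1382 genes of its level had a smaller SD.

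**Figure D4:**
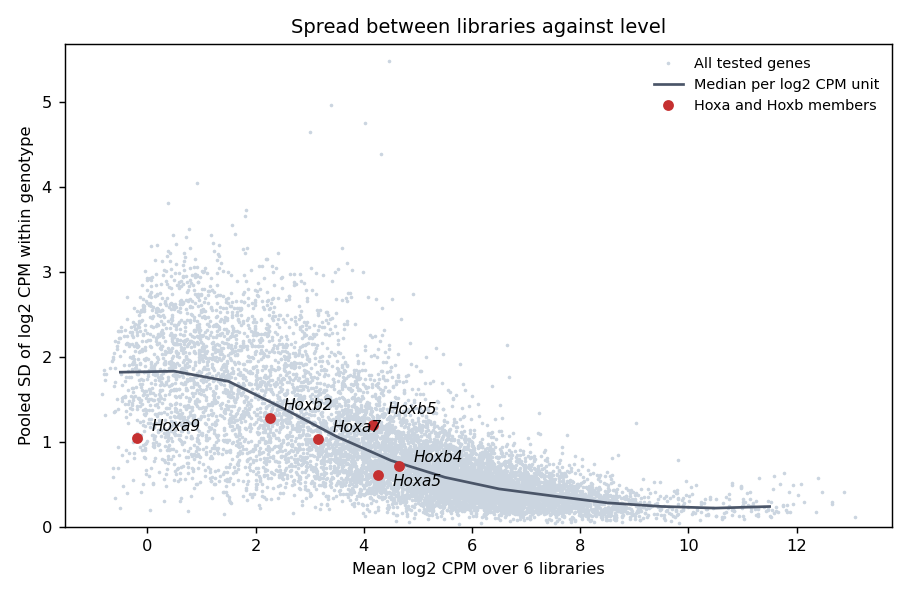
Pooled SD of log2 CPM within genotype against mean log2 CPM over the 6 libraries for all tested genes (grey), with their median per unit of log2 CPM (line) and the 6 tested members (red). The median falls with level, and 5 of the 6 members lie below the median of their own level, with Hoxb5 above it.

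The remaining genes of the clusters gave a similar picture of 1 or a few libraries deciding a value. The 4 that could be tested, all in the Hoxa cluster, had negative log2 fold changes, and 0 passed edgeR's test (0 also at an unadjusted p under 0.05). Hoxa3, an anterior Hox gene, had 93, 895 and 192 counts in the wild-type libraries and 260, 42 and 126 in knockout. The log2 difference was -1.71 (SE 0.88, edgeR adjusted p = 0.70), and -0.35 without wild-type library 2. Hoxa6 had 115, 499 and 50 counts in the wild-type libraries and 9, 173 and 27 in knockout. Its value was -1.89 (SE 1.17), and -0.64 without the same library. Hoxa4 (-1.57) and Hoxa2 (-0.29) both turned sign under limma-voom (0.19 and 1.25). Hoxa11, which was not tested, had 860 counts in wild-type library 1 and 0 in the other 5 libraries. Hoxb7, between Hoxb6 and Hoxb8, had 9 counts in the wild-type libraries and 3 in knockout.

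Of the 7 RNAs of the clusters that are listed here outside the protein-coding genes, 2 could be tested. Mira, a long non-coding RNA between Hoxa6 and Hoxa7, had 283, 101 and 336 counts in the wild-type libraries and 295, 86 and 354 in knockout, a log2 fold change of -0.35 (SE 0.72, edgeR adjusted p = 0.95). The locus of the microRNA miR-196b, between Hoxa9 and Hoxa10, had 0, 78 and 18 counts in the wild-type libraries and 5, 18 and 15 in knockout (-1.54, SE 1.72, edgeR adjusted p = 0.87), and its value was 0.21 without wild-type library 2. Its hairpin lies within an exon of a Hoxa9 transcript in GENCODE vM21, so these counts do not measure the mature microRNA. The miR-196a locus of the Hoxb cluster had 0 counts and that of miR-10a, just before Hoxb4, had 3, all in knockout library 1. These microRNAs are shown because miR-196 is known to repress Hox transcripts, Hoxb8 among them, and because both miR-196 loci give the same seed. Each mature sequence is from RefSeq, 5′ to 3′, with its seed, bases 2 to 8, in capitals.
mmu-miR-196b-5p: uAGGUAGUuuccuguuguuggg
mmu-miR-196a-5p: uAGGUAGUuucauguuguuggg
mmu-miR-10a-5p: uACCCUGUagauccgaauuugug

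The TALE partners of Hox proteins did not pass edgeR's test in either direction (0 of 7 tested genes of 11, and 0 at an unadjusted p under 0.05), with a median log2 fold change of 0.22. Pbx4 stood at 0.97 (SE 0.82) and Tgif1, a TALE repressor with 5 listed transcripts, at -0.97 (SE 1.28). Meis1, which has 2 listed transcripts, had 87, 36 and 1 counts in the wild-type libraries and 31, 14 and 11 in knockout. Its log2 difference was -1.54 (SE 1.56, edgeR adjusted p = 0.85). Leaving out wild-type library 1 gave -0.17. Meis2, Meis3 and Pknox2 had no counts. All 3 have several listed transcripts.

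Of the 22 listed regulators that keep Hox genes active, 12 could be tested. Of these 0 passed, with 3 positive and 9 negative and a median of -0.27. Men1, Ash2l and Dpy30 were among those not tested, with 1, 17 and 3 counts. Each has several listed transcripts, so their low counts are not read as low expression. Kmt2a, the MLL methyltransferase, stood at 1037, 1005 and 1000 CPM in the wild-type libraries and at 820.5, 766.4 and 827.4 CPM in the knockout libraries, with no overlap and with a log2 fold change of -0.33 (SE 0.17, edgeR adjusted p = 0.70). Kat6a, a histone acetyltransferase, stood at -0.33 (SE 0.23), Wdr5, a core subunit of MLL complexes, at -0.62 (SE 0.49; 0.069 when wild-type library 1 was left out), and Mllt10, which has 5 listed transcripts, at -1.97 (SE 1.51). Cdx1, Cdx2 and Cdx4, which induce Hox genes in the embryo, had no counts.

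Of the 17 listed Polycomb genes and enzymes that remove the Polycomb mark, 12 could be tested. Of these 0 passed, with 4 positive and 8 negative and a median of -0.37. At an unadjusted p under 0.05, 2 were lower and 0 higher, against 4.65% and 2.63% of all tested genes. Ezh2, Suz12, Phc1, Phc2 and Kdm2b were not tested, with 11, 6, 3, 3 and 6 counts. Each has several listed transcripts, so their low counts are not read as low expression. Kdm6b, a demethylase that removes the Polycomb mark from Hox genes, averaged 196.5 ± 62.6 CPM in the wild-type group and 92.7 ± 40.6 CPM in knockout (SD, n = 3), with no overlap and a log2 fold change of -1.08 (SE 0.37, edgeR adjusted p = 0.55). Cbx7, a Polycomb subunit that favours stem cell self-renewal, stood at -1.25 (SE 0.53, edgeR adjusted p = 0.65). Kdm6a, the relative of Kdm6b, stood at -0.35 (SE 0.26) and Ring1 at -0.67 (SE 0.54).

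Genes known to be driven by Hoxa9 or Meis1 had 0 of 15 tested genes passing, 7 positive and 8 negative, with a median of -0.0026. Cdk6, a kinase of cell cycle entry, stood at 0.74 (SE 0.43). It was 1.53 when wild-type library 2 was left out and 0.36 when wild-type library 1 was. Lmo2, which has 4 listed transcripts, stood at -1.61 (SE 1.34) and Ccl3 at -1.09 (SE 0.92). Cebpa, the myeloid regulator, stood at -2.74 (SE 2.12), with 203 of its counts in wild-type library 3, and at 2.35 without it. Of the 12 listed genes that flank the 2 clusters, 5 could be tested and 0 passed. Skap2, beside the Hoxa cluster, stood at 0.36 (SE 0.30), Hibadh at -0.26 (SE 0.43), Ube2z, near the Hoxb cluster, at -0.86 (SE 0.47; -0.17 when wild-type library 1 was left out) and Snf8 at -0.30 (SE 0.44).

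Summed levels of several marker lists of other cells also did not overlap between the genotypes. The list of genes that mark cells outside the sort gate, 5 of 12 tested and all 5 negative, summed to 164.4 to 255.7 CPM in the wild-type group and 85.4 to 85.7 CPM in knockout, with Cd8a and Itgam at 0. It holds Ptprc, the CD45 gene, which stem cells express and of which the gate removes only an isoform. Without Ptprc, an alternative chosen after seeing the data, the ranges were 119.9 to 243.8 and 62.1 to 70.0 CPM. Megakaryocyte genes summed to 608.4 to 867.0 CPM in the wild-type group and 1008 to 1392 CPM in knockout, with 7 of 9 tested genes positive. T and NK cell genes summed to 189.4 to 285.9 CPM in the wild-type group and 461.7 to 740.1 CPM in knockout, with 6 of 8 tested genes positive and Lck at 0. B cell genes summed to 84.9 to 197.1 CPM in the wild-type group and 36.1 to 53.5 CPM in knockout, with all 5 tested genes negative. Granulocyte and monocyte genes summed to 633.6 to 3401 CPM in the wild-type group and 328.3 to 490.1 CPM in knockout, with all 8 tested genes negative. Erythroid genes, and those of stroma and endothelium, had summed ranges that overlapped between the genotypes. Apart from Hlf no gene of any of these lists passed edgeR's test. DESeq2 also called Prtn3, a granule protease of the granulocyte and monocyte list that was lower in every knockout library (edgeR log2 fold change -5.07, DESeq2 adjusted p = 9.14e-13, edgeR adjusted p = 0.19). The part of these cells in the values of the Hox genes was not tested.

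Centred log2 CPM profiles over the 6 libraries were compared with the mean profile of the 6 tested members by root mean square distance. The candidates were 6608 genes outside the members whose mean log2 CPM was 4 or more. The nearest of so many genes lie close in any case, and no distance expected by chance was computed. The mean profile of the 6 tested members was 0.41, 0.46 and 0.38 in wild-type libraries 1, 2 and 3 and 0.24, -1.08 and -0.42 in knockout libraries 1, 2 and 3. Knockout library 2 was thus its lowest point, and knockout library 1 lay near the wild type. Single members differed from this mean. Hoxb5 was lowest in wild-type library 1, and Hoxb2 in knockout library 1 lay below every wild-type library. The nearest genes were Coro7, a coronin of the actin cytoskeleton and Golgi, at a distance of 0.16 log2 units, Cyp2j6, a cytochrome P450, at 0.18, Fbrs at 0.18 and Ptpn14, a tyrosine phosphatase, at 0.18.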

How the data were processed

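The deposited tables, 1 for each of 6 libraries, hold unnormalized read counts by RefSeq transcript. TopHat and the build mm9 were used per the submitters' processing notes. The sources used here name no counting tool and no annotation release, and do not say how strand and shared reads were handled. Of 30858 listed transcripts, 30363 took a symbol from a RefSeq table of GRCm38.p6 and 179 from GENCODE vM21, and 316 kept their accession. Counts were summed per symbol, and 0 columns were left unmatched. No coordinate comes from the deposited tables, which hold none. Positions, lengths and exon overlaps are those of GRCm38, and lengths are of the GENCODE transcript linked to each listed transcript. Intervals cover counting error only where this is said, since the reads carry no molecular identifiers.

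edgeR 4.0.16 (R 4.3.3) was fitted to all 6 libraries after TMM scaling. Its filterByExpr function removed low genes, at a count of 10 and a total of 15. The quasi-likelihood test (robust setting) compared genotypes with no covariate. Benjamini-Hochberg adjustment covered all 10204 genes and the threshold was 0.05. Standard errors came from the F statistic, and the prior count for log2 CPM was 2. The fitting code was tested on simulated data. DESeq2 1.42.0, limma-voom (limma 3.58.1), other scalings and filters, single transcripts, thinned libraries, a replicate block and the omission of each library were the alternatives.

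The members and gene lists were chosen with earlier results of these data known. Named genes are Hlf, the members, every tested gene of the Hox clusters, the 4 genes of smallest p in each list of partners, activators, repressors, targets and flanking genes, and the 4 nearest profiles; some genes that this rule or the lists hold are not reported here. Other genes were named after their values were seen: the untested Hox genes, the list members at 0 and the stem cell and sort markers.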

Additional observations from a re-analysis of the deposited data

How the results depend on the processing

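In all 15 alternatives run, 0 members and 0 genes of the Hox lists were called. With no filter on low counts all 10 members were tested. The median log2 fold change of the tested members, -0.65, lay between -0.69 and -0.59 in the alternatives that kept all libraries and between -0.95 and -0.36 with 1 library left out. The count of all called genes, 1, was 120 by DESeq2 (98 lower and 22 higher) and 9 with no filter. With 1 library left out it lay between 1 and 3, with 3 without wild-type library 1 and 2 without wild-type library 2. With the replicate number as a block it was 2, and Hoxb2 stood at -3.36 (edgeR adjusted p = 0.78). The labels do not say whether same-numbered libraries are paired. The correlations of their deviations from their group means were -0.010, -0.022 and 0.020, which cannot show whether they are. Signs turned for Hoxa2 (1.25 by limma-voom and 0.77 with the replicate block) and Hoxa4 (0.19 by limma-voom). With 1 library left out, the ranges that crossed 0 were -0.92 to 0.74 for Hoxa2, -0.11 to 1.96 for Hoxa9, -0.24 to 0.72 for Hoxb5 and -2.11 to 0.21 for Mir196b. The others were Mira (-0.73 to 0.059), Cebpa (-3.61 to 2.35), Hibadh (-0.48 to 0.11), Snf8 (-0.51 to 0.17) and Wdr5 (-1.01 to 0.069). The cause was not tested.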
